A study of Homo sapiens with 9 samples.

Results

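TMEM145, CD7, GNG8, SLC30A3, C20orf166-AS1 and RP11-479J7.2 are 6 of the 63856 genes in the count table of this RNA-seq study. They had at most 3 counts in every control library of the seminoma cell line TCam-2 and more in every library of cells with the activated ESX1 gene. The genes were chosen from exactly these values, so their levels are described and not tested. All 6 were among the 18452 genes that passed the filter on low counts, which they did through the ESX1 libraries. Their surroundings on the chromosomes, their relatives, their partner genes and markers of cell types were not used for the choice, and tests are given only for these.

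TCam-2 is a human testicular seminoma cell line, and 3 biological replicates each of 3 groups were sequenced as total RNA depleted of ribosomal RNA. The ESX1 group was transfected with px335_G2P vectors carrying gRNAs for the ESX1 gene together with PB-TRE-dCas9-VPR. This vector encodes a doxycycline-driven, catalytically dead Cas9 fused to transcriptional activators. The negative control (NC) received px335_G2P with gRNAs nonspecific for the human genome, and the wild type (WT) was not modified. Both transfected groups went through antibiotic selection and were given doxycycline, and cells were collected after 72 h. The methods describe no such treatment for WT. For NC, the methods do not say whether PB-TRE-dCas9-VPR was also delivered, and GFP marked only part of the cells of the transfected cultures, so each library is an average over a mixed culture. More cells that express a gene and more RNA of it per cell cannot be told apart in such bulk samples.

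ESX1 is a homeobox transcription factor encoded on the X chromosome, known from testis and placenta, and homeodomain proteins recognise short AT-rich sites with a TAAT core. Those of the 6 genes with a described role are known mainly from other cell types. TMEM145 encodes a multi-pass membrane protein with an extracellular GOLD domain. CD7 is a surface glycoprotein of T and NK cells, with SECTM1 and galectin-1 as ligands. GNG8 is a gamma subunit of heterotrimeric G proteins known from olfactory neurons. SLC30A3, also called ZnT3, loads zinc into synaptic vesicles. C20orf166-AS1 is a long noncoding RNA transcribed against the host gene of the muscle microRNAs MIR1-1 and MIR133A2, and RP11-479J7.2 is a locus known only by its clone-based name.

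The sequence just before the start of transcription is shown for the members found in RefSeq (GRCh38.p14), since the study asks which genes respond to a homeodomain factor. RefSeq promoters matched 4 of the 6 genes with 5 start sites in all. CD7 and RP11-479J7.2 are named only. Each line gives the 200 bases before the start on the gene's own strand, and the capitals mark TAAT or its reverse complement ATTA and the GC box letters GGGCGG or their reverse complement CCGCCC.
TMEM145 (chr19:42313109-42313308, plus strand): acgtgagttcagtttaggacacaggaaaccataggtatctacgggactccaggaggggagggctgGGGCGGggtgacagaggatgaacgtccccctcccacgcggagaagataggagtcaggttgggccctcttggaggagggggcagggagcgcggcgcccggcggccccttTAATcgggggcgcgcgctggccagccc
GNG8 (chr19:46636203-46636402, minus strand): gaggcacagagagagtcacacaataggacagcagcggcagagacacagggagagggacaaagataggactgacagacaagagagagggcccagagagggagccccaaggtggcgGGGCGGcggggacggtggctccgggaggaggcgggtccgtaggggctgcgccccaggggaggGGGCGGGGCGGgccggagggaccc
SLC30A3, upstream start (chr2:27275347-27275546, minus strand): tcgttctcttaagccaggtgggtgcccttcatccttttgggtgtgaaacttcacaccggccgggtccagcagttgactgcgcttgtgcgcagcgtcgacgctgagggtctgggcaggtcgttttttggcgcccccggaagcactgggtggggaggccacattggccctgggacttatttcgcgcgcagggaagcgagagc
SLC30A3, internal start (chr2:27263048-27263247, minus strand): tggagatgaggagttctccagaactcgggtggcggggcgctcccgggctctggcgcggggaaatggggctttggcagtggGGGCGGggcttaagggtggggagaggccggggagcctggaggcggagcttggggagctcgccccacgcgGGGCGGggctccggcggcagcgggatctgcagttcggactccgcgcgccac
C20orf166-AS1 (chr20:62551562-62551761, minus strand): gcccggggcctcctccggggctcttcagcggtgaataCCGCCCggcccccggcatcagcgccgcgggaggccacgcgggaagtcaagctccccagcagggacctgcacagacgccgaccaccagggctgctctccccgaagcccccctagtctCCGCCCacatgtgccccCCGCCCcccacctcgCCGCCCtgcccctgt
The RefSeq start lay 16 bases upstream of the start in the count table for TMEM145 and 35 bases upstream for C20orf166-AS1, which RefSeq lists as CRMA. For GNG8 it lay 1517 bases upstream, and for SLC30A3 the 2 starts lay 471 and 12770 bases downstream.

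The promoters were then searched over 300 bases, from 250 before to 50 after the start, on both strands and with overlapping matches counted. TAAT occurred in 1 of the 5, that of TMEM145, and 50.2% of all 35114 RefSeq promoters of that length hold it. TAATTA, which contains TAAT, occurred in 0 of the 5 (4.84% of all promoters), and the TATA box letters TATAAA in 0 (11.5% of all promoters). GGGCGG was found at 4 of the 5 starts, with 1 match at TMEM145, 3 at GNG8, 0 and 3 at the upstream and internal starts of SLC30A3, and 4 at C20orf166-AS1, and 45.0% of all promoters hold it. The share of G and C in these promoters was above the median, at the 64.0th to 87.0th percentile of all promoters. The G+C content was 67.7% at TMEM145, 68.7% at GNG8, 64.0% and 73.3% at SLC30A3 and 72% at C20orf166-AS1, beside a median of 58.7% over all promoters. A match is a description of the letters, and no match says nothing about the factor.

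The total count per library ranged from 8821806 to 9220653 in NC and from 7494442 to 10644408 in WT. In the ESX1 group it was 9990966 and 9755967 in replicates 1 and 2 and 5212804 in replicate 3, the shallowest of the 9 libraries. At these depths 3 counts were worth 0.554 CPM (counts per 1e6 of the TMM-scaled library size) in ESX1 replicate 3 and 0.302 to 0.437 CPM in the other 8 libraries. The ESX1 gene had 562, 554 and 170 counts in ESX1 replicates 1, 2 and 3. In the controls it had 35, 27 and 34 counts in NC and 33, 28 and 30 in WT, so the targeted gene itself was low in the controls but not silent. Its level in replicate 3 was 31.4 CPM, against 57.0 and 55.7 CPM in replicates 1 and 2. Seminoma markers (POU5F1, NANOG, SOX17, TFAP2C, PRDM1, KIT, PDPN and ALPL) were all detected, as the label of the line says, with a summed level of 1550 to 1870 CPM in ESX1, 2730 to 2930 in NC and 3520 to 4280 in WT.

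TMEM145 reached the highest CPM of the 6 genes. It is listed as ENSG00000167619.11 on the plus strand of chromosome 19 (chr19:42313325-42325062, GRCh38) with 2640 exon bases in 16 blocks. It had 114, 64 and 37 counts in ESX1 replicates 1, 2 and 3, against 0, 1 and 1 in NC and 0, 0 and 0 in WT. The normalized levels were 11.6, 6.44 and 6.83 CPM, a mean of 8.28 ± 2.85 CPM (SD, n = 3). The ESX1 and control libraries did not overlap, which the choice fixed, and replicate 1 stood above replicates 2 and 3. The exact Poisson 95% interval of replicate 1 (9.53 to 13.9 CPM) did not reach that of replicate 2 (4.96 to 8.22 CPM), so this difference was larger than counting error. These intervals cover counting error only. Set against 3 counts in each control library, the limit of the choice, the observed mean was at least 26.5-fold higher than NC and at least 23-fold higher than WT. Such bounds, here and below, hold for the observed counts and leave out the error of both levels.

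CD7 was the member whose level differed most between the ESX1 libraries. It is listed as ENSG00000173762.7 on the minus strand of chromosome 17 (chr17:82314868-82317602) as 1 merged exon block of 2735 bases that fills the whole locus, so spliced and unspliced reads both fell into it. It had 95, 36 and 19 counts in ESX1, 1, 0 and 0 in NC, and 3, 0 and 2 in WT. The levels were 9.63, 3.62 and 3.51 CPM, a mean of 5.59 ± 3.5 CPM (SD, n = 3). Replicate 1 stood 2.66 times above replicate 2 and 2.74 times above replicate 3, and its Poisson interval (7.79 to 11.8 CPM) lay above that of replicate 3 (2.11 to 5.48 CPM). Without replicate 1 the mean of the ESX1 libraries was 3.56 CPM. That all 3 libraries lay above every control library was fixed by the choice. Set against 3 counts per control library, the observed mean of all 3 was at least 17.9-fold higher than NC and at least 15.5-fold higher than WT.

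GNG8, like C20orf166-AS1, was lowest in the library in which the ESX1 gene was lowest. It is listed as ENSG00000167414.4 on the minus strand of chromosome 19 (chr19:46634076-46634685) with 216 exon bases in 2 blocks. Counts were 46, 49 and 14 in ESX1, 0, 0 and 0 in NC, and 0, 0 and 1 in WT. The levels were 4.66, 4.93 and 2.59 CPM, a mean of 4.06 ± 1.28 CPM (SD, n = 3). Replicate 3 was the lowest, at 63.7% of the mean of the ESX1 libraries, where the ESX1 gene was at 65.4% of its own mean. The exact Poisson 95% intervals of the highest and lowest ESX1 library overlapped, and the difference itself was not tested. The mean was at least 13.0-fold higher than NC and at least 11.3-fold higher than WT.

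SLC30A3 was low in all libraries but even between the ESX1 replicates. It is listed as ENSG00000115194.10 on the minus strand of chromosome 2 (chr2:27253684-27275817) with 5978 exon bases in 10 blocks. It had 21, 16 and 9 counts in ESX1, 2, 0 and 0 in NC, and 3, 0 and 0 in WT. The levels were 2.13, 1.61 and 1.66 CPM, a mean of 1.80 ± 0.286 CPM (SD, n = 3). The groups did not overlap in CPM, which the choice fixed. The 9 counts of ESX1 replicate 3 lay only a few read pairs above the highest control library. Set against 3 counts per control library, the observed mean was at least 5.76-fold higher than NC and at least 5.01-fold higher than WT. The Poisson intervals of ESX1 replicate 3 and WT replicate 1 overlapped, however.

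The noncoding pair had 0 counts in all 6 control libraries. C20orf166-AS1, listed as ENSG00000174403.15 on the minus strand of chromosome 20 (chr20:62544343-62551526) with 3397 exon bases in 7 blocks, had 40, 28 and 9 counts in ESX1. Its levels were 4.06, 2.82 and 1.66 CPM, a mean of 2.84 ± 1.20 CPM (SD, n = 3), at least 9.10-fold higher than NC and at least 7.92-fold higher than WT. RP11-479J7.2, listed as ENSG00000229588.1 on the plus strand of chromosome 1 (chr1:166334884-166335762) with 423 exon bases in 3 blocks, had 11, 17 and 7 counts in ESX1. Its levels were 1.12, 1.71 and 1.29 CPM, a mean of 1.37 ± 0.305 CPM (SD, n = 3), at least 4.39-fold higher than NC and at least 3.82-fold higher than WT. The order of the libraries differed between them, since replicate 1 was the highest for C20orf166-AS1 and the lowest for RP11-479J7.2. In both cases the Poisson intervals of the highest and lowest ESX1 library overlapped.

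**Figure D1:**
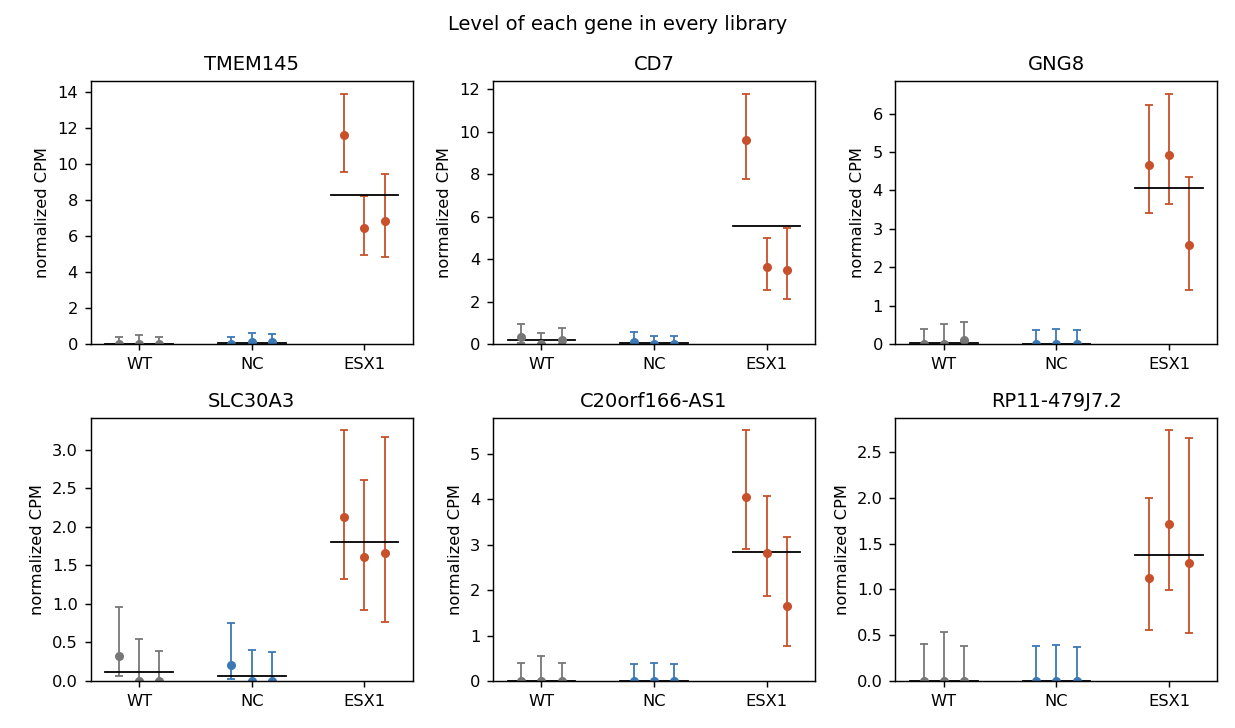
Normalized CPM (linear axis, its own scale in each panel) of the 6 genes in the 3 WT, 3 NC and 3 ESX1 libraries, with exact Poisson 95% intervals (counting error only) and the group mean as a line. Points of a group stand in the order of replicates 1 to 3. The CPM of every ESX1 library lies above that of every control library for each gene, as the choice fixed. Replicate 1 stands apart for TMEM145 (11.6 CPM) and CD7 (9.63 CPM). Some intervals overlap, as for SLC30A3 in ESX1 replicate 3 (0.76 to 3.16 CPM) and WT replicate 1 (0.0675 to 0.957 CPM).

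That all ESX1 libraries of all 6 genes lie above all 6 control libraries was fixed by the choice, and 6.39% of the tested genes did the same, so nothing is read from it. On the authors' log2 scale, where a gene with 0 counts stands at 4.18, the ESX1 libraries lay between 6.51 and 7.12 for TMEM145, between 5.96 and 6.92 for CD7 and between 5.73 and 6.26 for GNG8. The ranges were 5.44 to 5.61 for SLC30A3, 5.44 to 6.09 for C20orf166-AS1 and 5.24 to 5.47 for RP11-479J7.2. The scale compresses low genes, so the lowest members stood little more than 1 unit above a gene without reads.

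Even in the ESX1 libraries the 6 genes stayed in the lower range of expression. Their mean CPM lay at the 44.3rd percentile of all tested genes for TMEM145, the 38.3rd for CD7, the 33.5th for GNG8, the 27.5th for C20orf166-AS1, the 18.2nd for SLC30A3 and the 12.4th for RP11-479J7.2. Per kilobase of exon the order was another. GNG8 led with a mean of 18.8 RPKM, where its 216 exon bases are fewer than the bases of a sequenced fragment can be, so a value per length is uncertain for it. Its libraries (12 to 22.8 RPKM) did not overlap with those of RP11-479J7.2 (2.64 to 4.04 RPKM), which followed with a mean of 3.25 RPKM. TMEM145 came next with 3.14 RPKM and CD7 with 2.04 RPKM, and the ESX1 libraries overlapped between RP11-479J7.2 and TMEM145 and between TMEM145 and CD7. C20orf166-AS1 (0.837 RPKM) and SLC30A3 (0.301 RPKM) lay below them, with no overlap between CD7 and C20orf166-AS1 or between C20orf166-AS1 and SLC30A3. The ESX1 gene had a mean of 32.1 RPKM in the same libraries.

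The members differed in their pattern over the 3 ESX1 libraries when each gene was set to its own mean there. Among the members, only TMEM145 and CD7 had Poisson intervals of the highest and lowest library that did not overlap. The ESX1 gene itself was at 119%, 116% and 65.4% in replicates 1, 2 and 3. GNG8 (115%, 121% and 63.7%) was likewise lowest in replicate 3, with replicates 1 and 2 close to each other. TMEM145 (140%, 77.8% and 82.6%) and CD7 (172%, 64.8% and 62.8%) were high in replicate 1 alone. C20orf166-AS1 (143%, 99.0% and 58.4%) was also lowest in replicate 3, and SLC30A3 and RP11-479J7.2 stayed within 81.2% to 125%. With every library thinned to 5212804 counts, CD7 still had 59, 17 and 19 counts and TMEM145 73, 39 and 37 counts, so the excess of replicate 1 was there at equal depth too. CD7 was then lowest in replicate 2, so the order of its replicates 2 and 3 is not settled. With 3 libraries these patterns are a description.

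**Figure D2:**
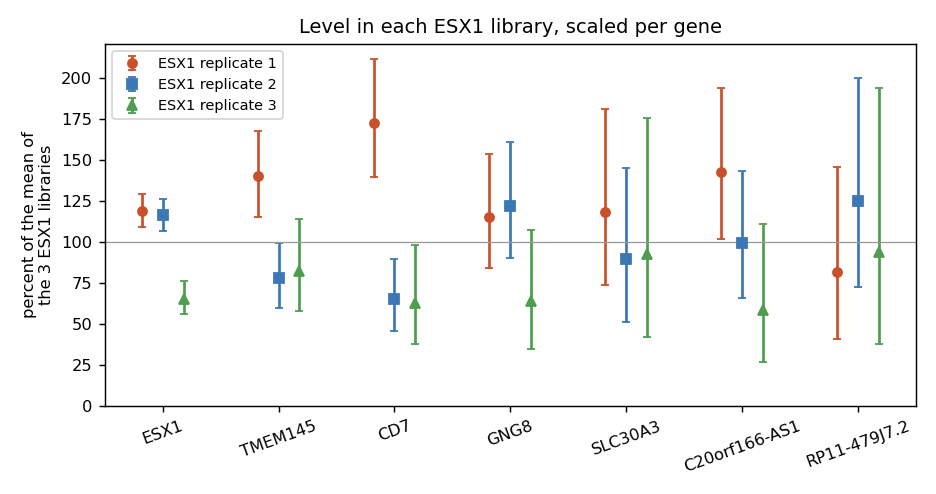
Level of the ESX1 gene and the 6 genes in each ESX1 library as percent of the gene's own mean over the 3 ESX1 libraries, with exact Poisson 95% intervals (counting error only). The grey line marks 100%, and CD7 reaches 172% in replicate 1. The ESX1 gene (65.4%), GNG8 (63.7%) and C20orf166-AS1 (58.4%) are lowest in replicate 3, while CD7 is about equally low in replicates 2 (64.8%) and 3 (62.8%).

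The tested genes most like each member were found by Pearson's r of log2 CPM over the 9 libraries, with the other members left out. These r values describe mostly the step between the ESX1 and control libraries, which the choice of the members fixed, and the points share libraries and depth. ESX1 itself was the most like gene for GNG8 (r = 0.991), C20orf166-AS1 (r = 0.996) and RP11-479J7.2 (r = 0.986). It took place 6 for TMEM145 (r = 0.983), place 11 for CD7 (r = 0.962) and place 18 for SLC30A3 (r = 0.946). KCNA5, a voltage-gated potassium channel, was first for TMEM145 (r = 0.994) and second for GNG8 (0.986), C20orf166-AS1 (0.992) and RP11-479J7.2 (0.981). The other genes among the closest 3 were IQGAP2 and ADAM19 for TMEM145, MAPK12 for GNG8 and C20orf166-AS1, and KCNIP4-IT1 for RP11-479J7.2. For CD7 they were STEAP3 (0.995), COMP (0.987) and CLDN4 (0.983), and for SLC30A3 COMP (0.988), TLL2 (0.984) and CCBE1 (0.975).

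Genes of this kind were few. Of all listed genes, 35387 had at most 3 counts in each of the 6 control libraries, and 23526 of the listed genes had 0 counts in all 9 libraries. At least 10 counts in each ESX1 library were reached by 9 of the 35387 genes, among them TMEM145, CD7 and GNG8, and at least 5 counts by 32, among them all 6 members. With NC in place of ESX1, 35471 genes were near silent in the other 6 libraries, and 0 reached 10 counts and 9 reached 5 in each NC library. With WT in that place, 34852 genes were near silent, and 0 reached 10 counts and 20 reached 5. The members ranked 1 (TMEM145), 4 (CD7), 5 (GNG8), 8 (C20orf166-AS1), 10 (SLC30A3) and 17 (RP11-479J7.2) by their lowest level in an ESX1 library.

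Coding and noncoding genes stood among the members in this order. LINC01314 had 68, 67 and 32 counts in ESX1 and at most 3 in a control library, and KCNIP4-IT1, named for an intron of KCNIP4, had 47, 89 and 20. TBX2, a T-box transcription factor, had 29, 23 and 20 counts, RNU6-1, a spliceosomal RNA, had 19, 19 and 15, and CTD-2126E3.1 had 22, 19 and 9. KCNA5 (24, 19 and 8 counts), the chemokine-like receptor CMKLR1 (32, 13 and 11) and TOX2 (16, 10 and 6), which the study names, came at places 11, 14 and 18. The study also lists the members TMEM145 and SLC30A3 among its upregulated genes. Some genes of the ranking that are not members, such as LINC01314, TBX2 and RNU6-1, reached the limit of 3 counts in a control library. Among the members, CD7 and SLC30A3 stood just inside that limit, each with 3 counts in 1 WT library. Just outside it, with 4 or 5 counts in the highest control library and at least 10 in each ESX1 library, stood 6 genes, among them LINC01833 (28, 37 and 13 counts in ESX1, at most 4 in a control) and SYT10 (28, 19 and 11, at most 4).

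**Figure D3:**
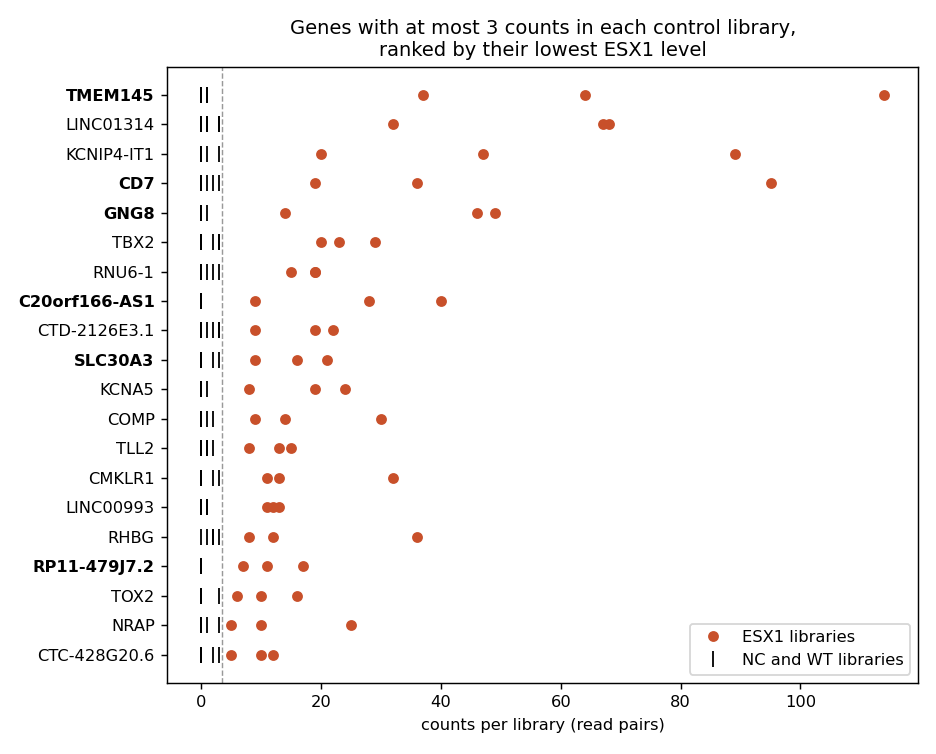
Counts per library of the 20 genes with at most 3 counts in each control library that had the highest lowest CPM in ESX1, with ESX1 libraries as circles, the 6 NC and WT libraries as ticks and the members in bold. The dashed line separates 3 from 4 counts, and TMEM145 leads with 37 to 114 counts in the ESX1 libraries.

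The 6 genes lie on 5 chromosomes, and TMEM145 and GNG8, both on chromosome 19, are not neighbours of each other. Within 100 kb of a member 78 other genes are listed, of which 61 had counts and 33 were tested. Groups were compared by the quasi-likelihood method of edgeR, adjusted after Benjamini-Hochberg for all 18452 tested genes, and a gene was called at an adjusted p below 0.05 and a change of at least 2-fold. Against NC, 1 of the 33 neighbours was called, as higher, where 1.78% of all tested genes were called (1.08% higher and 0.699% lower). Against WT, 2 of 33 were called, both as higher, where 11.5% of all were called (6.78% higher and 4.77% lower). Between NC and WT, edgeR called 0 of 33, where 5.27% of all were called (3.12% higher and 2.15% lower), with 8 at an unadjusted p below 0.05 and 0 called by DESeq2 or by limma. The median log2 fold change of the neighbours was -0.04 against NC, 0.09 against WT and 0.12 for NC against WT, beside 0.00, 0.01 and 0.01 over all tested genes. The comparisons with ESX1 share the ESX1 libraries.

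**Figure D4:**
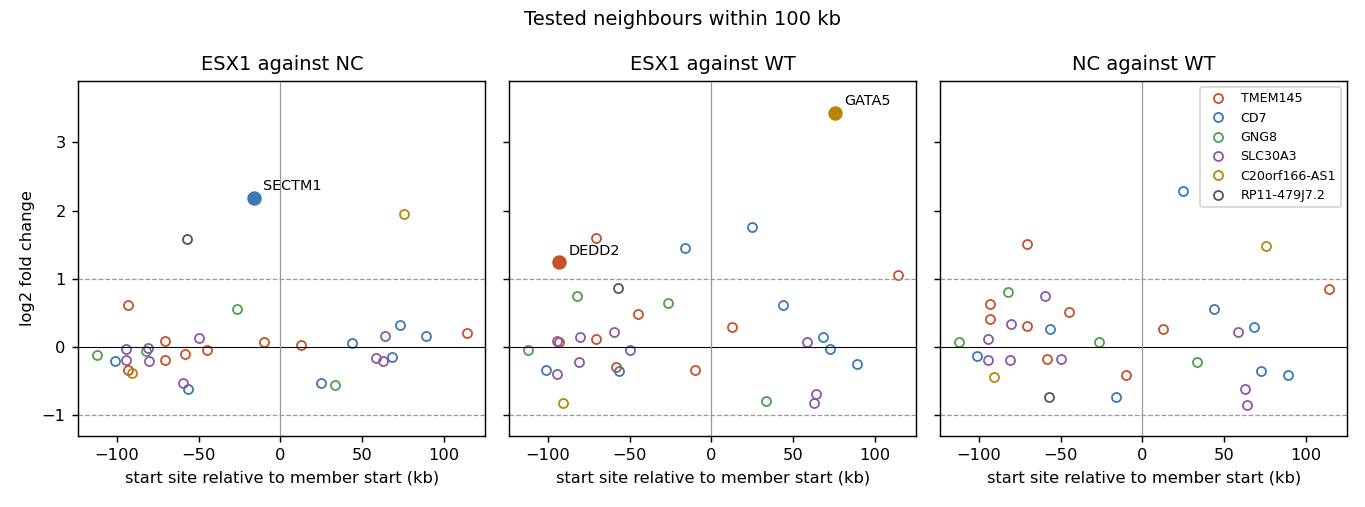
Log2 fold change (edgeR) of the 33 tested neighbours against the distance in kb from the start of the member to the start of the neighbour, negative upstream, in the 3 comparisons. Colours give the member, filled points were called, and dashed lines mark a 2-fold change. The neighbours called are SECTM1 (2.19) against NC, and GATA5 (3.44) and DEDD2 (1.25) against WT.

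SECTM1, which encodes a secreted and transmembrane ligand of CD7, was the neighbour called against NC. It is listed as ENSG00000141574.7 on the minus strand (chr17:82321024-82334074), so it lies upstream of CD7 in the same direction, with 3421 bases between the spans and 0 shared exon bases. It had 59, 22 and 15 counts in ESX1, 4, 11 and 8 in NC, and 5, 6 and 24 in WT. All ESX1 libraries were above all NC libraries, while WT replicate 3 (2.51 CPM) lay above ESX1 replicate 2 (2.21 CPM). The log2 fold change against NC was 2.19 (SE 0.581, edgeR adjusted p = 0.0402), and that against WT was 1.46 (SE 0.552, edgeR adjusted p = 0.0567) and did not pass in edgeR, while DESeq2 called SECTM1 against WT as well. The call against NC was lost without ESX1 replicate 1 (1.60, adjusted p = 0.217 by edgeR), without ESX1 replicate 3 (2.35, 0.0702), and without NC replicate 1 (1.88, 0.173), 2 (2.56, 0.0760) or 3 (2.21, 0.136), and with limma on the authors' log2 values (0.90, 0.0660). As for CD7, ESX1 replicate 1 was the highest library. Summed over libraries, SECTM1 had 96 counts in ESX1 and 58 in the 6 controls, where CD7 had 150 and 6. No other tested neighbour of CD7 was called against NC or WT by edgeR.

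GATA5, a zinc finger transcription factor of heart and endoderm, lies 68372 bases from C20orf166-AS1 on the same strand (ENSG00000130700.6, chr20:62463497-62475970). It had 26, 27 and 8 counts in ESX1, 8, 5 and 4 in NC, and 0, 4 and 1 in WT. Its normalized level in every ESX1 library (1.48 to 2.72 CPM) was above that in every control library (at most 0.829 CPM). The same held for 6.39% of all tested genes. The log2 fold change was 3.44 against WT (SE 0.758, edgeR adjusted p = 0.00258), a value that rests on few WT counts and was 5.12 without WT replicate 2, 2.83 without WT replicate 1 and 1.09 with limma on the authors' log2 values, all of them called. The 1.95 against NC (SE 0.630, edgeR adjusted p = 0.0994) did not pass. NC against WT gave 1.49 (SE 0.857, edgeR adjusted p = 0.251). The host gene MIR1-1HG, which overlaps the span of C20orf166-AS1 on the opposite strand with 0 shared exon bases, had 3, 3 and 0 counts in ESX1 and 0 in the controls, and MIR1-1 and MIR133A2 had 0 counts in all libraries.

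DEDD2, which encodes a death effector domain protein, lies 93184 bases from TMEM145 (ENSG00000160570.13, chr19:42198598-42220140, minus strand). It had 655, 419 and 358 counts in ESX1, 387, 349 and 355 in NC, and 238, 163 and 224 in WT. Against WT it was higher by 1.25 on the log2 scale (SE 0.165, edgeR adjusted p = 2.87e-05), of which about equal steps lay between ESX1 and NC (0.62, adjusted p = 0.0367 by edgeR) and between NC and WT (0.64, adjusted p = 0.0135 by edgeR), each below 2-fold. PRR19, 2503 bases upstream of TMEM145 on the same strand, had at most 11 counts in a library and was not tested.

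**Figure D5:**
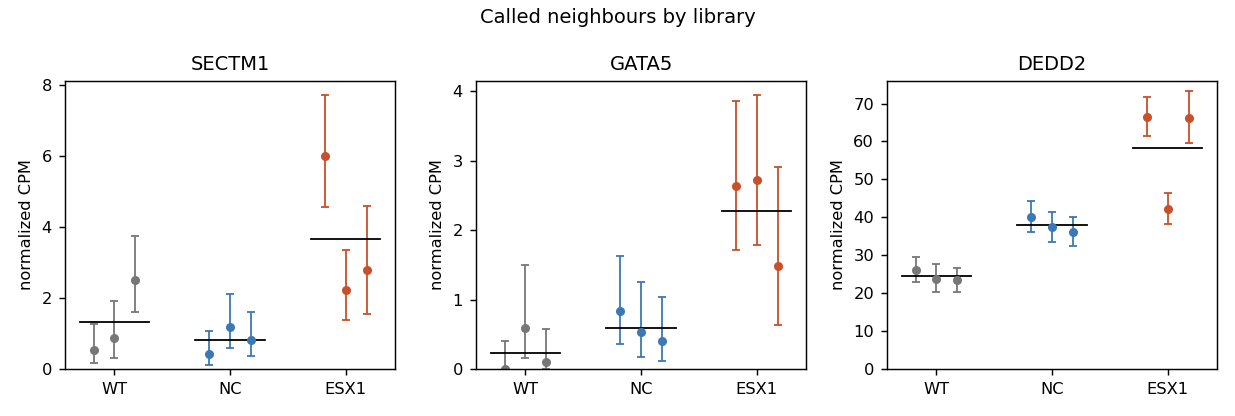
Normalized CPM of SECTM1, GATA5 and DEDD2 in the 3 WT, 3 NC and 3 ESX1 libraries, with exact Poisson 95% intervals (counting error only) and the group mean as a line. The CPM values of SECTM1 overlap between WT and ESX1, and those of GATA5 do not overlap between ESX1 and the controls. The GATA5 intervals of ESX1 replicate 3 (0.638 to 2.91 CPM) and NC replicate 1 (0.358 to 1.63 CPM) do overlap. DEDD2 lies at 23.4 to 26 CPM in WT, 36.1 to 40.1 CPM in NC and 42.2 to 66.4 CPM in ESX1.

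Around the other members no tested neighbour was called in a comparison with ESX1 by edgeR, DESeq2 or limma. Of the 4 tested neighbours of GNG8, 1 had an unadjusted p below 0.05 against NC and 2 against WT. CALM3, a calmodulin gene 23282 bases from GNG8, had the smallest p of them against NC, with a log2 fold change of -0.56 (SE 0.127, edgeR adjusted p = 0.0153) that stayed below 2-fold. The genes nearest to GNG8, PTGIR and CTB-12A17.2, had 0 counts and at most 4 counts. Of the 9 tested neighbours of SLC30A3, 0 had an unadjusted p below 0.05 against NC and 3 against WT, and the nearest tested of them, CAD (9740 bases), had -0.16 against NC (SE 0.146, edgeR adjusted p = 0.679). SLC30A3 shares 42 exon bases, 0.7% of its exons, with DNAJC5G on the other strand, which had 0 counts in every library. The only tested neighbour of RP11-479J7.2, RP11-9L18.2 at 57286 bases, had 1.59 against NC (SE 0.522, edgeR adjusted p = 0.106) and 0.86 against WT (SE 0.502, edgeR adjusted p = 0.214).

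Few relatives and partners of the members were called. Of 51 genes in 6 lists chosen by family or function, 33 were tested, and edgeR called 1 against NC, 4 against WT and 1 between NC and WT. Those shares of 3.03%, 12.1% and 3.03% stand beside the 1.78%, 11.5% and 5.27% of all tested genes, and the medians of the list genes were -0.04, -0.05 and -0.01. In the GOST family of TMEM145, all 6 relatives were tested, with a summed level of 298 to 324 CPM in ESX1 and 276 to 301 CPM in the controls. WLS, the carrier of Wnt proteins to the cell surface, was the member of that family called, with 1.74 against WT (SE 0.258, edgeR adjusted p = 8.5e-05), and 0.79 against NC (SE 0.245, edgeR adjusted p = 0.0843) did not pass.

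Other G protein beta and gamma subunits were present where GNG8 had been near silent. Of 16 listed, 12 were tested, and edgeR called 0 against NC, 0 against WT and 0 between the controls, with 1, 4 and 3 at an unadjusted p below 0.05 and 0 called by DESeq2 or limma in any of them. Their summed level was 398 to 475 CPM in ESX1, 486 to 492 in NC and 439 to 564 in WT. GNG3, GNG10, GNG11 and GNGT2 were too low to be tested.

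Of 9 zinc transporters of the SLC30 family besides SLC30A3, 7 were tested. Against NC edgeR called 0, with 1 at an unadjusted p below 0.05 and 0 called by DESeq2 or limma. Against WT, SLC30A4 rose by 1.16 on the log2 scale (SE 0.309, edgeR adjusted p = 0.00919) and SLC30A2 fell by 1.76 (SE 0.545, edgeR adjusted p = 0.0221). The call of SLC30A2 was lost without ESX1 replicate 2 (-1.47, adjusted p = 0.0829 by edgeR), without ESX1 replicate 3 (-1.65, 0.0720) and without WT replicate 2 (-1.39, 0.120). The synaptic vesicle genes, the setting in which SLC30A3 is known, gave 0 calls by edgeR among 6 tested of 11 listed in the 3 comparisons, with 1, 2 and 0 at an unadjusted p below 0.05 and 0 by DESeq2 or limma. The 7 skeletal muscle genes chosen for C20orf166-AS1 were too low to be tested, with a summed level of at most 3.14 CPM in any library.

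Of the ligands of CD7, SECTM1 was called against NC as described, and galectin-1 (LGALS1) had 26.2 ± 6.01 CPM in ESX1, 32.2 ± 2.63 in NC and 69.1 ± 9.07 in WT (SD, n = 3). Relative to WT, LGALS1 fell by 1.38 on the log2 scale in ESX1 (SE 0.163, edgeR adjusted p = 8.94e-06) and by 1.10 in NC (SE 0.160, edgeR adjusted p = 0.000221), and its -0.28 against NC (SE 0.164, edgeR adjusted p = 0.437) did not pass.

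Most markers of the cells in which CD7 is known were at or near 0 in these libraries. Of 15 T and NK cell markers, CD3D and CD3E had 0 counts in every library and 8 markers, these included, had at most 3 counts in every library. The summed level of the list was 24.4 to 24.8 CPM in ESX1, 16.5 to 19.8 in NC and 10.9 to 15.6 in WT. Most of it was KLRD1, at 20.1 ± 0.662, 13.7 ± 2.08 and 9.80 ± 2.03 CPM (SD, n = 3), which was called against WT with a log2 fold change of 1.03 (SE 0.194, edgeR adjusted p = 0.000748) and lost that call without WT replicate 2 (0.92) or 3 (0.96), where it stayed below 2-fold. The other marker lists held called genes as well. NANOG fell against NC by 1.26 (SE 0.116, edgeR adjusted p = 7e-06), the only seminoma marker called there. TFAP2C (-0.71), POU5F1 (-0.78), PRDM1 (-0.75), PDPN (-0.59) and ALPL (-0.51) were lower against NC at an edgeR adjusted p below 0.05, each by less than 2-fold. KIT (-0.69) and SOX17 (-0.03) did not pass, and the median of the 8 against NC was -0.70. Against WT 6 of the 8 seminoma markers were called as lower, where 4.77% of all tested genes were called as lower. Between NC and WT 1 of them was called, KIT, which fell there by 1.96 (SE 0.202, edgeR adjusted p = 1.15e-05) and by 2.64 in ESX1 against WT (SE 0.213, edgeR adjusted p = 1.77e-07), and the median of the 8 was -0.50 for NC against WT and -1.23 for ESX1 against WT. Of the 6 markers of somatic cells of the testis, 4 were tested, and SOX9, a marker of Sertoli cells, was the only call of edgeR against NC, with 1.83 (SE 0.397, edgeR adjusted p = 0.0120). That call was lost without ESX1 replicate 1 (1.57, 0.0671) or NC replicate 2 (1.52, 0.0736), and against WT SOX9 had 0.86 (SE 0.374, edgeR adjusted p = 0.0953). AMH, STAR and ACTA2 had 0.29, 0.16 and 0.22 against NC and were not called. Of the 2 markers of embryonal carcinoma, SOX2 rose in NC against WT by 1.23 (SE 0.350, edgeR adjusted p = 0.0222) and lost that call without NC replicate 2 (1.10, 0.0884), NC replicate 3 (1.15, 0.0781) or WT replicate 3 (0.85, 0.0911). TNFRSF8, which was too low to be tested, had 5, 0 and 0 counts in ESX1, 0 in every NC library and 6, 13 and 10 in WT. The part of these shifts in the levels of the 6 genes was not tested.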

How the data were processed

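The data are RNA-seq libraries of TCam-2 cells, 9 in number, with WT, NC and ESX1 in triplicate as the sample labels group them. The authors aligned read pairs to GRCh38 using HISAT2 2.0.5. Gene counts came from featureCounts (1.6.5 per the labels, 1.5.2 per the file header) with no strand option, although the library kit keeps the strand. The deposited counts were not normalized. The authors also deposited log2 values, which the methods describe as normalized with DESeq2, and these served for limma and as levels. Of the value columns, 0 lacked a sample. Locations are those of the count table.

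The tools were edgeR 4.0.16, DESeq2 1.42.0 and limma 3.58.1 under R 4.3.3. filterByExpr kept 18452 of the 63856 genes, and counts were scaled with TMM and fitted as 3 group means over all 9 libraries with glmQLFit, with glmQLFTest for each pair of groups. Adjustment was by Benjamini-Hochberg across the tested genes of a comparison, and a gene was called at an adjusted p below 0.05 and at least 2-fold. The scripts were tested on simulated data. The p-values set a difference of group means against the spread between these TCam-2 libraries only. Lower bounds set an observed mean against 3 counts per library, the limit of the choice, and carry no error. Poisson intervals are at 95%.

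The 6 genes and the lists were chosen with earlier results of these data known. By rule, the text could name these genes, ESX1, and the nearest genes and tested genes within 100 kb, of which only some are named. The rule also covered called list and marker genes and the 10 near-silent genes with the highest lowest ESX1 level. It further covered the 3 most correlated genes per member (prior count 2) and 3 other low genes the study names. A gene under this rule is not reported here. LINC01833 and SYT10 were named after their values were seen. Alternatives were RLE factors, DESeq2, other filters, limma, a replicate block, no minimum fold, windows of 50 and 250 kb, other count limits, thinning and leaving out each library.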

Additional observations from a re-analysis of the deposited data

How the results depend on the processing

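The mean ESX1 level of each of the 6 genes moved by less than 1 SD under RLE factors and thinning, and CD7 fell from 5.59 to 3.56 CPM without ESX1 replicate 1. Of the results with a test, 0 reversed. Genes called numbered 328 (ESX1 against NC), 2131 (ESX1 against WT) and 973 (NC against WT). They were 200, 1192 and 563 with at least 10 counts in every library, where fewer genes are tested, 158, 935 and 332 with limma on the compressed log2 values, and 784, 5306 and 3158 with no minimum fold. The neighbours called, 1, 2 and 0 in that order, were 4 against WT with no filter beyond 1 count, 0 against NC and 1 against WT with at least 10 counts in every library, 0 against NC with limma, 3, 9 and 5 with no minimum fold, 0 against WT within 50 kb, and 4 against WT and 4 for NC against WT within 250 kb. The list genes called, 1, 4 and 1, were 8 against WT without the filter, 0 against NC with at least 10 counts, 0 and 2 against NC and WT with limma, and 11 against WT and 5 for NC against WT with no minimum fold. When each library was left out in turn, called genes ranged over 209 to 434, 1772 to 2529 and 686 to 1338 (209 against NC without NC replicate 3), neighbours over 0 to 2, 2 to 4 and 0 to 1, and list genes over 0 to 1, 3 to 6 and 1 to 2. The 9 near-silent genes with at least 10 counts in each ESX1 library became 3 at no more than 1 control count, 15 at no more than 5, 32 with at least 5 ESX1 counts and 4 with at least 20. Leaving out each library gave 9 to 24, with 24 without ESX1 replicate 3, the shallowest. Summed counts (at most 3 in the controls, at least 30 in ESX1), an alternative chosen after seeing the data, gave 11. Deviations of same-numbered libraries correlated at -0.03 to 0.193. Differently numbered libraries were not set beside them, so these values cannot decide whether the replicate numbers in the titles pair the libraries. With the replicate numbers as a block, 358, 2109 and 1003 genes were called (312, 2045 and 937 shared), and 2 list genes for NC against WT. With limma SECTM1, SOX9, SLC30A2, SLC30A4, KLRD1 and SOX2 were no longer called in the comparison in which edgeR called them. Depth limits the lowest members: 7 to 9 counts in ESX1 replicate 3 stand beside a floor of 3.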
